A study of Mus musculus with 18 samples.

Results

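Transcripts of 8 maternal-effect genes were followed in single 2-cell mouse embryos. They encode 4 proteins of the subcortical maternal complex (Nlrp5, Tle6, Ooep and Khdc3), the peptidylarginine deiminase Padi6, and 3 further egg proteins (Zar1, Npm2 and Dppa3). They were chosen by RefSeq identifier, 1 transcript a gene, among the 26823 transcripts counted in each embryo, and not by any value measured here. All 8 had counts and all 8 passed the filter on low counts for the comparison of the groups, as did 15333 transcripts in all.

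RNA of 18 individual embryos was amplified and sequenced, 9 embryos sired by wild-type males (fathers 1, 2 and 3) and 9 sired by Parg(110)-/- males (fathers 6, 7 and 8), with 3 embryos from each father. All mice were of the 129SVE strain background and the mothers of both groups were wild-type, so the genotype given for an embryo is its father's. Parg(110)-/- males carry a disrupted gene for poly(ADP-ribose) glycohydrolase, the enzyme that removes poly(ADP-ribose) from proteins, and serve as a model of abnormal histone retention in sperm. The question of the comparison was whether the condition of the father's sperm chromatin shows in the transcripts of his offspring, here in transcripts that the egg supplies. The embryos are named by father and embryo (6-1 is embryo 1 of father 6), and those of the second group are called Parg(110) embryos. Not every sperm of such a male is abnormal, so the group may hold embryos from sperm with little change.

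A mouse egg loads its cytoplasm with transcripts and proteins before it is shed, and these carry the embryo through its first division until its own genome is switched on at the 2-cell stage. Products that are needed then, and that only the mother can provide, are called maternal-effect genes, because eggs of mutant mothers fail whatever the father contributes. Several of them form the subcortical maternal complex, a protein assembly below the surface of the egg and of the outer blastomeres. Most maternal transcripts are degraded around the 2-cell stage while the embryo starts its own transcription, and the counts here do not separate the remaining maternal transcripts from new ones.

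Sequencing depth ranged from 2852858 to 13355161 counts an embryo (median 7392699), and values are given as counts per 1000000 counts of the embryo's total (CPM). The 8 transcripts together made up 0.102 to 0.417% of all counts of an embryo, with a median of 0.219% in the wild-type and 0.189% in the Parg(110) group. Since CPM is a share of the library, a lower share and less RNA of that gene per embryo cannot be told apart. The labelled material was checked against markers. Of the 10 oocyte and egg markers all were counted, with a summed level of 450 to 807 CPM in wild-type and 331 to 1173 CPM in Parg(110) embryos. Of the 10 markers of 2-cell genome activation all were counted too, with sums of 267 to 949 and 124 to 568 CPM, most of it from Sp110 (220 to 867 and 110 to 458 CPM). Zscan4c, Zscan4d, Zfp352 and Tdpoz3 had medians of 0.139 to 7.64 CPM in the groups and were at 0 in some embryos. Of the 10 markers of cumulus or granulosa cells, which surround the egg, 6 were at 0 in every embryo (Amh, Inha, Foxl2, Fshr, Tnfaip6 and Ptx3) and the sums were 0 to 10.9 and 0 to 11.5 CPM. Cyp19a1 was counted in 10 embryos (at most 9.82 CPM), Ptgs2 in 3 (at most 5.47 CPM), Cyp11a1 in 2 (at most 10.9 CPM) and Has2 in 1 (0.594 CPM). Of the 7 sperm and spermatid markers, Prm1, Tnp1, Tnp2 and Odf1 were at 0 in every embryo and the sums were at most 3.44 and 4.36 CPM. The 6 blastocyst markers summed to at most 14.6 and 10.04 CPM. Parg itself lay at 32.0 to 138 CPM (median 78.4) in wild-type and 25.2 to 77.3 CPM (median 46.7) in Parg(110) embryos, a log2 fold change of -0.67 ± 0.34 (SE; edgeR, adjusted p = 0.872). As the mothers were wild-type, this value does not check the labels. On the first 3 principal components, embryos 2-3, 7-1 and 7-2 lay farthest from the others, and the results that change without them are given with both values.

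Only reads placed at 1 position of the genome with at most 1 mismatch were counted by the authors, so parts of a gene that recur elsewhere in the genome give few or no counts. The sequences of the 8 genes differed in this respect. Windows of 50 bases along the longest coding transcript of each gene (GENCODE vM1) were searched in the mm9 genome with at most 1 mismatch. In Dppa3 69.4% of the windows matched a place outside the gene or more than 1 place within it. The share was 44.0% in Zar1, 23.5% in Nlrp5, 6.41% in Tle6 and 3.69% in Ooep, and 0 in Khdc3, Padi6 and Npm2. With exact matches only, the shares were 24.2% for Dppa3, 25.2% for Zar1 and 11.2% for Nlrp5. The other place for Dppa3, which encodes Stella, was a copy without introns on chromosome X (chrX:35039886-35040704, minus strand, 97.7% identical over 820 aligned bases), where 2 pseudogenes are annotated. For Zar1 it was a pseudogene (Gm15847) on the chromosome of Zar1 itself (chr5:73404738-73405520, plus strand, 95.1% over 801 aligned bases). For Nlrp5 it was a series of blocks of 96.2 to 99.4% identity on chromosome 7, each close to the size of 1 exon. The genome is that of another mouse strain than the embryos' and the read length is not given in the sources used here, so these shares describe the sequences and not the counts. Their part in the levels below was not tested.

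A pair of coding exons shows how close the copies are, with capitals marking each base that differs from the copy. The Nlrp5 exon (mm9, chr7:24215048-24215218, plus strand, 171 bases) differs at 1 base from the copy at chr7:15171967-15172137 (minus strand), so all 122 of its windows of 50 bases lie within 1 mismatch of the copy. The Dppa3 exon (mm9, chr6:122578592-122578827, plus strand, 236 bases) differs at 5 bases from the copy on chromosome X, and 137 of its 187 windows lie within 1 mismatch of the copy.
Nlrp5 exon: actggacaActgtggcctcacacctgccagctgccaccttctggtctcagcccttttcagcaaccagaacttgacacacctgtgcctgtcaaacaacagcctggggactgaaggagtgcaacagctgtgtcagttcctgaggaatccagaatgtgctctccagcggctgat
Dppa3 exon: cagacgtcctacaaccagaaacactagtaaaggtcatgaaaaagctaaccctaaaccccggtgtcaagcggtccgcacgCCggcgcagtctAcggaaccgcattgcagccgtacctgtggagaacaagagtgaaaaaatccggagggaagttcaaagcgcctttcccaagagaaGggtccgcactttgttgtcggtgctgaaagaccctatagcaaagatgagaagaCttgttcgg

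The 4 genes of the subcortical maternal complex differed in level and in how far single embryos departed from one another. Nlrp5 (NM_011860, chromosome 7, 24170908 to 24226941, plus strand, mm9) encodes MATER, an NLR-family protein at the core of the complex. In the wild-type embryos it lay between 203 (embryo 1-2) and 746 CPM (embryo 3-3), with a median of 511. In the Parg(110) embryos it lay between 128 (embryo 8-3) and 1486 CPM (embryo 6-1), with a median of 366. The Parg(110) range enclosed the wild-type range, and both extremes of the 18 embryos were Parg(110) embryos. Counting error was small at these levels (95% exact Poisson interval of 1464 to 1507 CPM in embryo 6-1 and of 120 to 137 CPM in embryo 8-3). Such intervals cover counting error only and not the amplification of the cDNA. The fitted log2 fold change was 0.20 ± 0.36 (SE, n = 9 and 9; edgeR quasi-likelihood, p adjusted by Benjamini-Hochberg over all transcripts tested, adjusted p = 0.980), with a 95% interval of -0.54 to 0.94. Without embryo 6-1 it was -0.20 (edgeR, adjusted p = 0.976), so 1 embryo set its direction. A second RefSeq transcript of Nlrp5 (NM_001039143) held 89.0% as many counts as this one (81.1 to 98.7% in single embryos) and shares most of its reads with it.

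Tle6 (NM_053254, chromosome 10, 81053649 to 81063818, minus strand) encodes a relative of the Groucho co-repressors that in the egg is bound to Nlrp5 and Ooep in the complex. Its wild-type values ran from 0.351 (embryo 2-3, the shallowest library) to 60.9 CPM (embryo 3-1), with a median of 28.9. Its Parg(110) values ran from 9.55 (embryo 6-3) to 87.7 CPM (embryo 7-1), with a median of 22.7. The value of embryo 2-3 was a single count, with a counting interval of 0.0089 to 1.95 CPM, far below the next lowest embryo of its group (4.30 CPM). The 3 highest of all 18 embryos, 7-1, 8-1 and 7-3 (87.7, 82.3 and 74.5 CPM), were Parg(110) embryos, but the other 6 lay inside the wild-type range. Between the groups the fitted log2 fold change was 0.57 ± 0.63 (95% interval -0.72 to 1.86; edgeR, adjusted p = 0.971).

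Ooep (NM_026480, chromosome 9, 78223916 to 78226532, minus strand) encodes FLOPED, a small protein with a KH-like domain that is needed to assemble the complex. Wild-type values were 1.58 (embryo 3-2) to 22.5 CPM (embryo 2-1), with a median of 9.20. Parg(110) values were 0 to 22.4 CPM (embryo 6-3), with a median of 10.1. No read was counted in embryos 8-1 and 8-2, which share a father, whereas the third embryo of that father, 8-3, held 134 counts (18.6 CPM). In embryos 8-1 and 8-2 a count of 0 allows up to 0.843 and 0.523 CPM (3 counts of each total, a one-sided 95% limit). By this limit they lay at least 10.96-fold and 17.7-fold below the wild-type mean of 9.24 CPM. The limit covers counting error only, and loss in the amplification of the cDNA was not tested. The other 7 Parg(110) embryos ran from 0.961 CPM upward, so both groups held embryos with little Ooep. The groups differed by a log2 fold change of 0.10 ± 0.90 (95% interval -1.74 to 1.95; edgeR, adjusted p = 1.00). It turned to -1.03 with the father as a random effect (limma, adjusted p = 0.891) and to -0.71 without father 6 (edgeR, adjusted p = 0.968), so no direction is given for Ooep.

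Khdc3 (NM_025890, chromosome 9, 72949643 to 72952250, plus strand) encodes FILIA, which binds Nlrp5 and guards chromosome segregation in the early embryo, and it was close to the detection limit. Wild-type values were 0 to 4.04 CPM (median 0.577) and Parg(110) values 0 to 3.65 CPM (median 0.697). It was at 0 in 3 wild-type (1-1, 2-2 and 3-2) and 2 Parg(110) embryos (7-2 and 8-3), where a count of 0 allows between 0.264 and 0.417 CPM. The most counts in any embryo were 54, in embryo 2-1. The interval of the log2 fold change, -2.96 to 2.55 around -0.20, was the widest of the 8 and spans several-fold differences in both directions.

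Padi6 (NM_153106, chromosome 4, 140283270 to 140298558, minus strand) is the peptidylarginine deiminase of the egg, needed for the cytoplasmic lattices in which maternal ribosomes and the complex are stored. It was among the steadiest transcripts: 37.3 (embryo 1-1) to 104 CPM (embryo 1-3) with a median of 56.8 in the wild-type group, and 45.2 (embryo 7-2) to 114 CPM (embryo 7-1) with a median of 59.1 in the Parg(110) group. Apart from embryo 7-1, the Parg(110) embryos lay between 45.2 and 63.0 CPM, inside the wild-type range. Its fitted log2 fold change was 0.00 ± 0.29 (95% interval -0.60 to 0.60; edgeR, adjusted p = 1.00), that is, between 0.662-fold and 1.52-fold. The other 4 genes of its family, Padi1, Padi2, Padi3 and Padi4, had median levels of at most 0.150 CPM in either group and did not pass the filter for a test.

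The other 3 transcripts encode proteins outside the complex. Zar1 (NM_174877, chromosome 5, 72968353 to 72972323, minus strand) encodes an RNA-binding protein of the egg that holds maternal transcripts, and its loss stops embryos at the transition from egg to embryo. It lay between 1.75 (embryo 2-3) and 16.7 CPM (embryo 3-2) with a median of 6.08 in the wild-type group, and between 0.281 (embryo 8-1, a single count) and 24.1 CPM (embryo 7-3) with a median of 9.64 in the Parg(110) group. The 3 highest embryos were again Parg(110) embryos, one of each father, and the lowest was one too. Its log2 fold change, 0.63 ± 0.73, was the largest of the 8 and had an interval of -0.87 to 2.13 (edgeR, adjusted p = 0.971).

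Npm2 (NM_181345, chromosome 14, 71047109 to 71052891, minus strand) encodes nucleoplasmin, a histone chaperone that organises the nucleus of the egg and early embryo. Wild-type values ran from 515 (embryo 3-3) to 1979 CPM (embryo 2-2) with a median of 1348, and Parg(110) values from 486 (embryo 7-3) to 3074 CPM (embryo 7-1) with a median of 1036. The highest and the lowest of all 18 embryos came from the same father, 7. The log2 fold change was 0.16 ± 0.35 (95% interval -0.56 to 0.88; edgeR, adjusted p = 0.991), and -0.22 without embryos 2-3, 7-1 and 7-2.

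Dppa3 (NM_139218, chromosome 6, 122576428 to 122580290, plus strand) encodes Stella, which protects the maternal genome from loss of DNA methylation in the zygote. Its values were 175 (embryo 2-1) to 415 CPM (embryo 3-3) with a median of 286 in the wild-type group, and 193 (embryo 8-3) to 350 CPM (embryo 6-1) with a median of 307 in the Parg(110) group. Every Parg(110) embryo lay inside the wild-type range. The log2 fold change was -0.01 ± 0.21 (95% interval -0.44 to 0.41; edgeR, adjusted p = 1.00), which spans 0.738-fold to 1.33-fold and was the narrowest interval of the 8. Its direction turned with the scaling factors, to 0.0007 with those of DESeq2's method, so no direction is given for it.

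**Figure D1:**
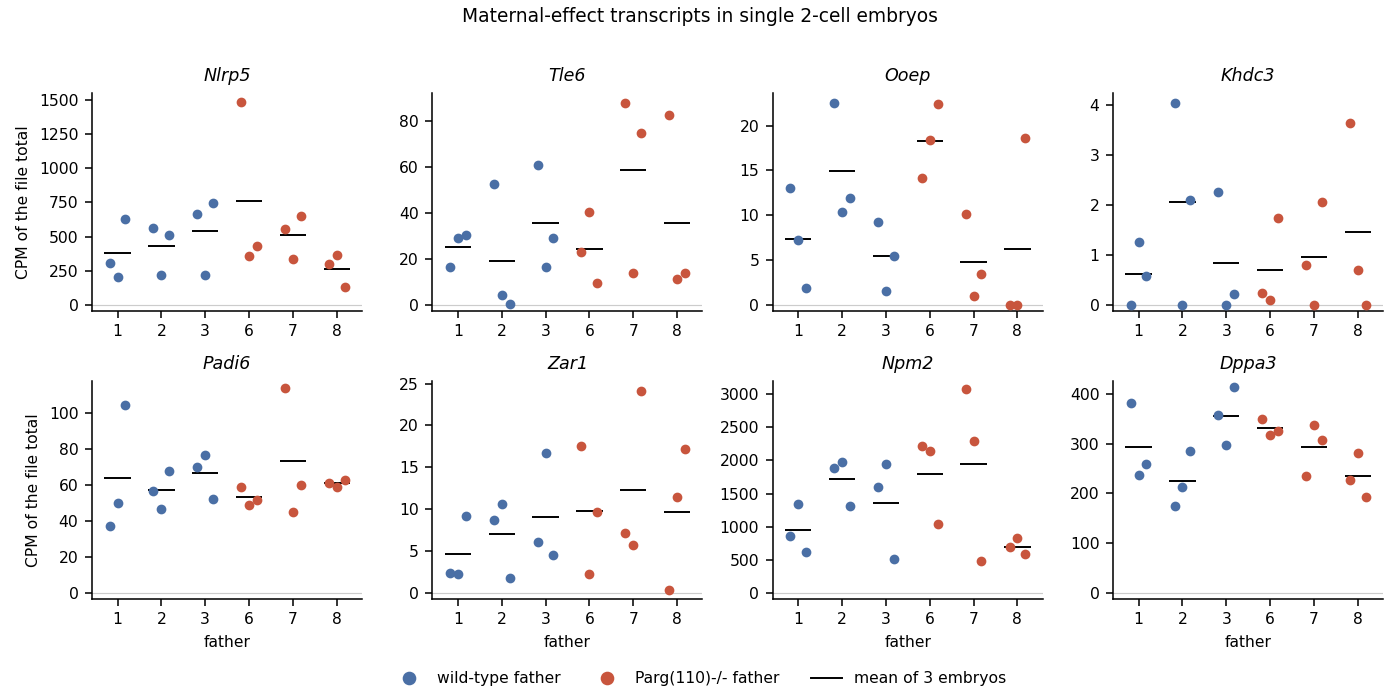
Level of each transcript in each embryo (CPM of the file total, linear axis from 0, a scale of its own for each gene) by father, with wild-type fathers 1 to 3 and Parg(110)-/- fathers 6 to 8. Points are embryos and bars the mean of the 3 embryos of a father; the Nlrp5 point of embryo 6-1 (1486 CPM) and the Padi6 point of embryo 7-1 (114 CPM) stand above the other embryos of their group.

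Between the groups, 0 of the 8 transcripts passed the threshold of an adjusted p below 0.1 (edgeR's quasi-likelihood test), as did 0% of all transcripts tested. At an unadjusted p below 0.05 the count was also 0 of 8, against 5.8% of all transcripts. DESeq2's test called 0 of the 7 that it gave an adjusted p (all but Khdc3), beside 0.293% of all transcripts with one (38 of 12954). The ranges of the groups overlapped for all 8, and 0.00652% of all transcripts, that is 1, had ranges that did not. The fitted log2 fold change was above 0 for 6 of the 8, with a median of 0.13, beside 49.0% above 0 and a median of -0.02 over all transcripts tested. The smallest adjusted p of the 8 was 0.971. The intervals bound the difference to within 1.33-fold upward for Dppa3 and 1.52-fold for Padi6, but leave room for 4.39-fold for Zar1 and 5.86-fold for Khdc3. A p that misses the threshold does not show that the groups were alike, and the interval is the statement for each gene. With the father as the unit (3 against 3, where an exact permutation test cannot go below p = 0.1), the exact p-values were 0.5 to 1.0. The fit treats the 3 embryos of a father as independent. The correlation of embryos within a father was -0.0197, a single value estimated over all transcripts that does not speak for each gene. Where the embryos of a father are alike in a gene, its interval is too narrow. The largest shares of variance between fathers were those of Dppa3, 52.3% in the wild-type and 57.6% in the Parg(110) group (exact permutation test, adjusted p = 0.667 for both).

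**Figure D2:**
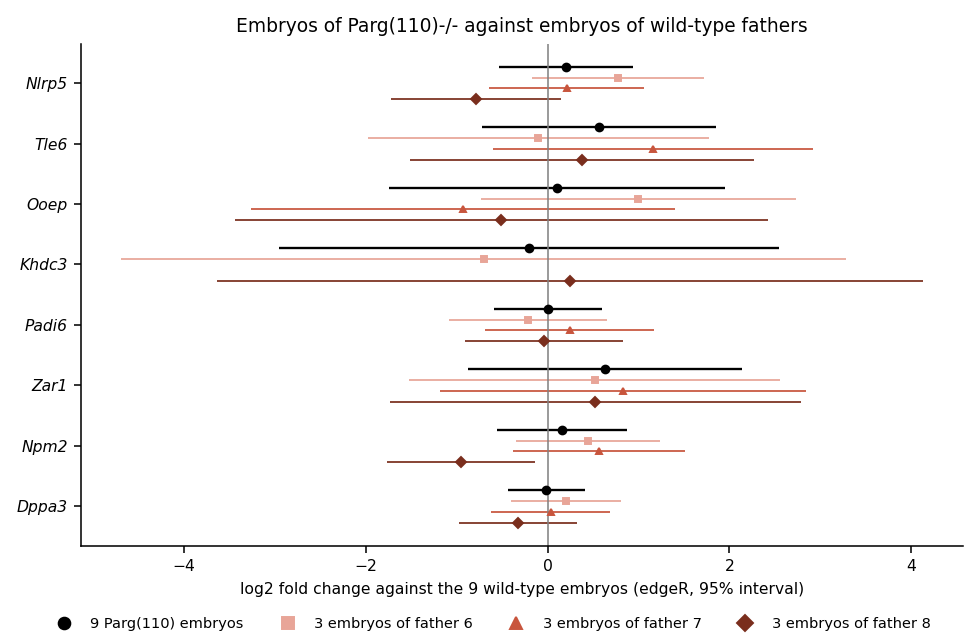
Log2 fold change of each transcript against the 9 wild-type embryos (horizontal axis, edgeR), for the 9 Parg(110) embryos together and for the 3 embryos of each Parg(110)-/- father; bars are 95% intervals. All 8 intervals of the group comparison include 0, and among those of single fathers only Npm2 in father 8 (-1.77 to -0.13, adjusted p = 0.556) does not.

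The embryos of each Parg(110)-/- father were then compared with the 9 wild-type embryos, which these comparisons share. In edgeR's test 0 of 8 passed an adjusted p below 0.1 in father 6 (background 0.00696% of the transcripts tested), 0 of 7 in father 7 (0%), where Khdc3 did not pass the filter, and 0 of 8 in father 8 (0%). DESeq2's test called 0 of 7 in each father, with no adjusted p for Khdc3, beside 1.47%, 2.91% and 2.31% of all transcripts with one in fathers 6, 7 and 8. At an unadjusted p below 0.05 in edgeR the only one was Npm2 in father 8, where the backgrounds were 7.18%, 8.78% and 8.94% in fathers 6, 7 and 8. Npm2 lay at 699 ± 117 CPM (SD, n = 3) in the embryos of father 8, and at 1802 ± 664 and 1952 ± 1328 CPM in those of fathers 6 and 7. All 3 embryos of father 8 were below the wild-type mean of 1340 CPM but inside the wild-type range of 515 to 1979 CPM. The log2 fold change in father 8 was -0.95 ± 0.39 (edgeR, adjusted p = 0.556), and 0.44 and 0.57 in fathers 6 and 7. Nlrp5 had 758 ± 631, 514 ± 162 and 264 ± 122 CPM in fathers 6, 7 and 8 and log2 fold changes of 0.78, 0.21 and -0.79 (edgeR, adjusted p of 0.808, 0.962 and 0.637). In Dppa3 the means were 332 ± 16.4, 294 ± 52.4 and 234 ± 44.4 CPM. For Ooep father 6 had 18.3 ± 4.12 CPM, father 7 had 4.83 ± 4.73 and father 8 had 6.21 ± 10.8. Differences between fathers were tested for each gene within each group by exact permutation of the embryos over the fathers. Of these 16 tests 0 had an adjusted p below 0.1. The smallest p was that of Dppa3 in the Parg(110) group, where fathers accounted for 57.6% of the variance (exact permutation test, p = 0.0536, adjusted p = 0.667). In the wild-type group Dppa3 also had the largest share, 52.3% (exact permutation test, p = 0.114, adjusted p = 0.667). For Padi6 in the wild-type group and Khdc3 in the Parg(110) group the share was 5.09% and 3.79%. With 3 embryos a father, part of such a share arises by chance alone, which the permutation test takes into account.

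Single Parg(110) embryos were also set against the wild-type group, with the spread taken from the wild-type embryos alone. Of the 72 comparisons 0 had an adjusted p below 0.1 (edgeR), beside 0.0585% of all comparisons made over all transcripts. At an unadjusted p below 0.05 there were 6 of 72, beside 5.72% of all. They were Nlrp5 in embryo 6-1 (log2 fold change 1.76 ± 0.54, SE) and in embryo 8-3 (-1.75 ± 0.76), Npm2 in embryos 7-1 (1.19 ± 0.53) and 7-3 (-1.49 ± 0.68), and Ooep in embryos 8-1 and 8-2, where it was at 0. The smallest p was that of Nlrp5 in embryo 6-1, with an adjusted p of 0.592 (edgeR). Each rests on 1 embryo, and the share is close to that over all transcripts. Tle6, Khdc3, Padi6, Zar1 and Dppa3 had no embryo past that limit.

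The spread between embryos set the 8 transcripts apart from one another. Over all 18 embryos the coefficient of variation of the CPM was 23.2% for Dppa3 and 31.4% for Padi6. It was 54.1% for Npm2, 64.3% for Nlrp5, 75.7% for Zar1, 79.5% for Ooep, 82.9% for Tle6 and 117% for Khdc3. Over all transcripts tested the median was 108%. Of all transcripts tested 0.841% had a lower coefficient than Dppa3 and 3.24% a lower one than Padi6. Low transcripts scatter more, so each was also set beside the transcripts with a mean within 2-fold of its own. Of the 710 such transcripts for Nlrp5 (mean 482 CPM), 92.1% varied less than it did, and of the 164 for Npm2 (1412 CPM), 92.7% did. For Dppa3 (289 CPM) it was 5.70% of 1088 and for Padi6 (62.5 CPM) 2.14% of 2810. The share was 64.7% for Tle6, 18.7% for Ooep, 12.6% for Zar1 and 5.27% for Khdc3. At their own level, Npm2 was thus among the more variable transcripts, and Dppa3 and Padi6 among the less variable. The place of Nlrp5 leaned on embryo 6-1: without it the coefficient was 44.4% and 69.0% of 800 transcripts varied less. The share for Khdc3 cannot be read in this way, because near its level the filter keeps only transcripts with a few high embryos. Counting alone would give 2.30% for Dppa3, 4.94% for Padi6, 1.04% for Npm2, 1.78% for Nlrp5 and 37.3% for Khdc3. Each was below the spread seen in that gene. How much of the remaining spread arose in the amplification of the cDNA was not tested. The coefficient of Nlrp5 was 47.5% in the wild-type and 77.0% in the Parg(110) group, or 40.9% in the latter without embryo 6-1, and that of Dppa3 was 27.7% and 19.3%; these differences were not tested.

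**Figure D3:**
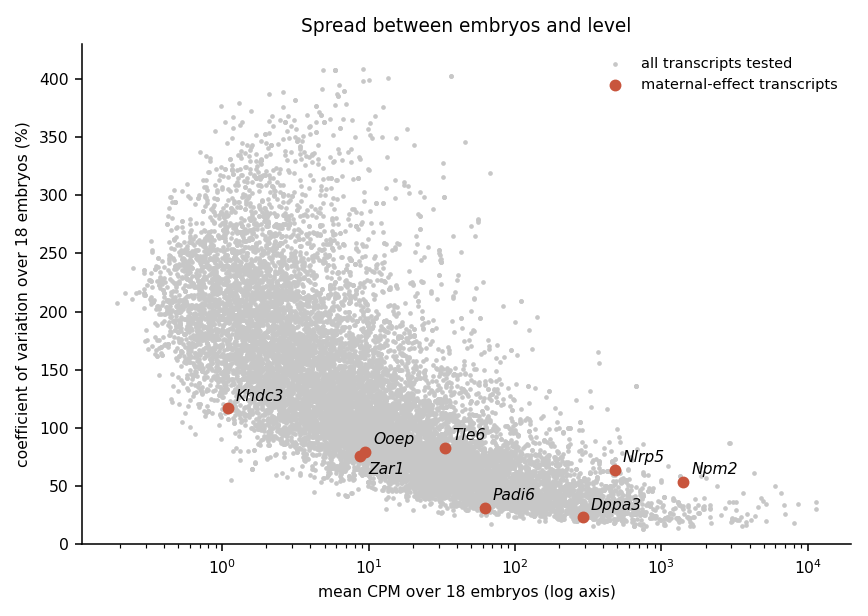
Coefficient of variation of CPM over the 18 embryos (vertical axis, %) against mean CPM (horizontal log axis) for the 15333 transcripts tested (grey) and the 8 maternal-effect transcripts (red). Dppa3 (23.2%) and Padi6 (31.4%) lie at the lower edge of the cloud at their level, while Nlrp5 (64.3%) and Npm2 (54.1%) lie above most transcripts within 2-fold of their mean.

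For an order of levels between genes, CPM was divided by the length in kilobases of the longest coding transcript. Npm2 stood first with 1416 ± 766 CPM per kilobase (SD, n = 18), followed by Dppa3 (347 ± 80.6), Nlrp5 (134 ± 86.2), Padi6 (26.8 ± 8.42), Tle6 (16.4 ± 13.6), Zar1 (6.95 ± 5.26), Ooep (4.45 ± 3.54) and Khdc3 (0.653 ± 0.763). Each of the first 3 genes exceeded the next in 18 of 18 embryos, by a mean of 3.60-fold, 2.96-fold and 4.41-fold on the scale of log2(CPM per kilobase + 0.1) (two-sided permutation test of sign changes, adjusted p = 4.7e-05 for each, at or close to the smallest that the permutations can give). Padi6 exceeded Tle6 in 14 of 18 embryos (permutation test, adjusted p = 0.0014) and Ooep exceeded Khdc3 in 16 of 18 (permutation test, adjusted p = 0.0027). Tle6, Zar1 and Ooep were less well separated. Tle6 exceeded Zar1 in 11 of 18 embryos (permutation test, adjusted p = 0.0652) and Zar1 exceeded Ooep in 12 of 18 (permutation test, adjusted p = 0.0922), below the study's threshold of 0.1 but not below 0.05. The SD of the log2 difference was 2.30 in both pairs, larger than the means of 1.09 and 0.96, so single embryos often had the opposite order. The order was the same within the wild-type embryos and within the Parg(110) embryos. The order of the means was also the same when the length was replaced by the number of windows without a match elsewhere, but not every step held. These are the windows left after those that matched outside the gene, or more than once within it, were removed. Windows across exon junctions need not match the genome at all, and those that did not were kept. Dppa3 has 240 windows without a match elsewhere and Npm2 948. On that scale Npm2 exceeded Dppa3 by 1.09-fold, in 10 of 18 embryos (permutation test, adjusted p = 0.582). Tle6 exceeded Zar1 in 10 of 18 (permutation test, adjusted p = 0.582), while the step from Dppa3 to Nlrp5 widened to 7.75-fold, in 18 of 18. The place of Npm2 above Dppa3 therefore depends on the length used. With the coding length, which for Ooep is 495 of 2138 bases, Ooep rose to rank 5. Within the complex the transcripts thus spanned from 134 CPM per kilobase for Nlrp5 to 0.653 for Khdc3.

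**Figure D4:**
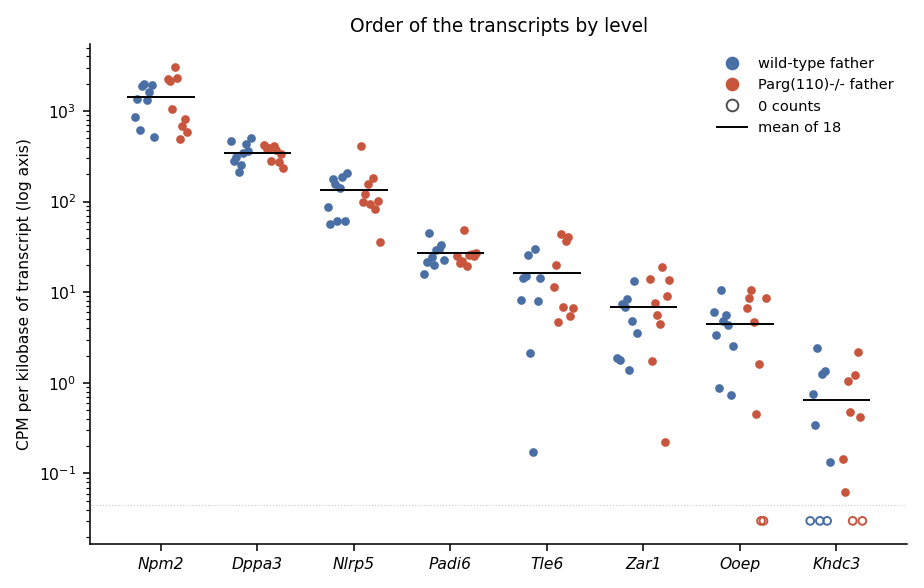
Level of each transcript per kilobase of transcript (vertical log axis) in each embryo, ordered by the mean of the 18 embryos (bars). Open circles below the dotted line are embryos with 0 counts, 5 for Khdc3 and 2 for Ooep, and with this length the first 3 genes keep their places in all 18 embryos. Counted per window without a match elsewhere, Npm2 stands above Dppa3 in 10 of 18.

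Between the 8 transcripts no correlation from embryo to embryo passed the threshold, which does not show that there was none. Over the 28 pairs, Pearson's r of log2(CPM + 1) across the 18 embryos lay between -0.30 and 0.44 with a median of 0.03, and 14 of 28 were above 0. After adjustment 0 of 28 pairs had a p below 0.1 by r or by Spearman's rho (permutation test of the pairing), and before adjustment 0 had a p below 0.05. The highest was that of Nlrp5 and Dppa3 (r = 0.44, permutation p = 0.0645, adjusted p = 0.883; rho = 0.46, permutation p = 0.0552, adjusted p = 0.789), which fell to 0.23 without the 2 embryos farthest from the median Nlrp5 level. It was 0.28 within the wild-type and 0.66 within the Parg(110) embryos. Among the genes of the complex, r was 0.25 for Nlrp5 and Tle6, 0.10 for Nlrp5 and Ooep, 0.28 for Nlrp5 and Khdc3, -0.14 for Tle6 and Ooep, 0.28 for Tle6 and Khdc3 and -0.02 for Ooep and Khdc3. With each father's mean removed the 28 values ran from -0.53 (Tle6 and Dppa3) to 0.52 (Tle6 and Khdc3), with 3 of 28 below an unadjusted p of 0.05 by r and 3 by rho, and a smallest adjusted p of 0.381 (permutation test). All values of an embryo share 1 library, and Khdc3 and Ooep rest on few counts.

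**Figure D5:**
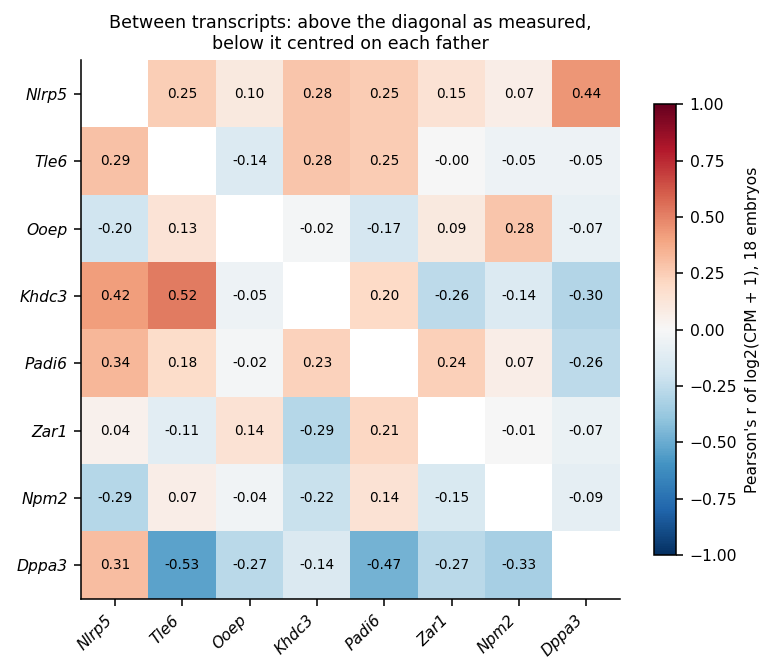
Pearson's r of log2(CPM + 1) between each pair of transcripts over the 18 embryos, from -1 (blue) to 1 (red); above the diagonal as measured and below it with the mean of each father removed. As measured, the values run from -0.30 to 0.44.

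The transcripts whose pattern over the 18 embryos came closest to the mean of the 8 (standardised log2 CPM with TMM scaling) were Eola1 (NM_026787, r = 0.84), Leprotl1 (NM_026609, r = 0.83), the second Nlrp5 transcript (NM_001039143, r = 0.80), Tfb1m (NM_146074, r = 0.78) and Cdk4 (NM_009870, r = 0.78). Spearman's rho was 0.83, 0.55, 0.81, 0.52 and 0.78 in that order. All but the Nlrp5 transcript (432 CPM) were low, with means of 5.26 CPM (Eola1), 1.31 CPM (Leprotl1), 2.66 CPM (Tfb1m) and 2.43 CPM (Cdk4). These transcripts have the highest r of the 15333 tested, chosen for these values, and the Nlrp5 transcript shares reads with a member of the mean. The 8 transcripts themselves followed their own mean with r between 0.22 (Dppa3) and 0.77 (Nlrp5), although each is part of it.

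Related genes gave the same count. Of 19 further genes (partners of the egg's complexes and the NLR, KH and Padi families), 15 were tested, all but Padi1, Padi2, Padi3 and Padi4. Of these 15, 0 passed an adjusted p below 0.1 (edgeR) and 0 had an unadjusted p below 0.05. Their median log2 fold change was 0.10, with 9 of 15 above 0. The smallest p upward was that of Zbed3, a partner of the complex, at 843 ± 307 and 1142 ± 677 CPM (mean ± SD of the wild-type and Parg(110) embryos, log2 fold change 0.44 ± 0.30, edgeR adjusted p = 0.934). Downward it was Dppa5a, a KH-domain gene also active in pluripotent cells, at 8.12 ± 5.84 and 5.09 ± 3.83 CPM (-0.66 ± 0.76, edgeR adjusted p = 0.971). Of 38 other maternal-effect genes, 36 were tested, 0 passed and 23 were above 0, with a median of 0.06. The smallest p upward was that of Fmn2, a formin that moves the spindle of the egg, at 82.2 ± 37.7 and 147 ± 102 CPM (0.85 ± 0.37, edgeR adjusted p = 0.805), the 1 gene of this list at an unadjusted p below 0.05. Downward it was Dnmt1, the maintenance DNA methyltransferase, at 9725 ± 2595 and 7388 ± 3022 CPM (-0.39 ± 0.21, edgeR adjusted p = 0.891). Of the 10 oocyte and egg markers 0 of 10 passed and 9 were above 0 (median 0.35), with the smallest p upward for Mos (1.96 ± 1.53, edgeR adjusted p = 0.951) and downward for Zp1 (-0.52 ± 0.82, edgeR adjusted p = 0.979). Of the 10 markers of genome activation 0 of 10 passed and 4 were above 0 (median -0.20), with the smallest p upward for Usp17l5 (1.08 ± 1.29, edgeR adjusted p = 0.971) and downward for Sp110 (-0.42 ± 0.28, edgeR adjusted p = 0.925). Few markers of other cells could be tested, and 0 passed: 2 of cumulus or granulosa cells (the smaller p for Ptgs2, 2.70 ± 1.68, edgeR adjusted p = 0.917), 1 of the blastocyst (Krt18, 0.51 ± 1.80, edgeR adjusted p = 1.00) and 0 of sperm.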

How the data were processed

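RNA of 18 single 2-cell embryos was measured by RNA-seq. Per the study's methods the authors amplified total RNA with a whole-transcriptome kit, mapped reads to mm9 with RUM (at most 1 mismatch, unique positions only) and tested with DESeq (1.10.0 in the submitters' processing notes). The deposited values are raw read counts per RefSeq transcript, not normalized. Amplification from 1 embryo can drop rare transcripts and widen the spread, and reads shared by isoforms count for each.

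Symbols came from a RefSeq table (26132 of 26823 transcripts matched), positions and lengths from GENCODE vM1 on mm9. Counts with TMM scaling were tested with edgeR 4.0.16 (R 4.3.3), quasi-likelihood, keeping transcripts that reached 10 counts in 3 or more embryos (1 or more for single-embryo comparisons), with Benjamini-Hochberg adjustment over all of them and the study's threshold of 0.1. SE is the log2 fold change over the square root of F. Single values were tested by permutation, exact for fathers, with 100000 resamples for pairs and neighbours in the order. Sequence copies were found with BLAST+ 2.17.0 and by matching windows. Levels per kilobase used a pseudocount of 0.1 and correlations 1 CPM. Alternatives used DESeq2 1.42.0, limma 3.58.1 with father as random effect, other scalings and filters, sums per father and omitted fathers or embryos. The edgeR and DESeq2 fits of the 2 groups were tried on simulated data. So were the permutation tests of fathers within a group, of pairs and of neighbours in the order. The other fits and tests were not. No batch is named in the labels. Every pair of libraries differed by far more than sampling noise (chi-squared per degree of freedom of at least 78 in 153 pairs).

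The genes, lists and tests were chosen with earlier results of these data known. All 8 genes are named. From each other list, the gene with the smallest p in each direction is named where none passed, and the 5 transcripts closest in pattern are named.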

Additional observations from a re-analysis of the deposited data

Results flagged for a closer look

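In the Parg(110) group, embryo 6-1 stood apart in Nlrp5 with 1486 CPM, where the next embryo had 650 CPM (gap over range 0.616, above Dixon's 95% critical value for 9 samples). In the same group, embryo 7-1 stood apart in Padi6 with 114 CPM, where the next had 63.0 CPM (gap over range 0.742). The 16 groups examined were the 8 genes in each group of 9 embryos. For normally distributed values chance alone marks about 1 in 20 groups, and whether the CPM were so distributed was not tested.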

How the results depend on the processing

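Under alternatives 152 values were recomputed. Of these, 127 were log2 fold changes of the 8, and 100 kept their direction. The rest were counts of transcripts or pairs that passed and of ranks kept, which have no direction. Among them 1 moved, the order by coding length. In the 17 fits of the group comparison, 0 of the transcripts tested among the 8 passed, and their smallest adjusted p was 0.721 (without a filter). Tle6 and Zar1 stayed above 0 in all 16 alternatives, with ranges of 0.16 to 0.87 and 0.32 to 0.84. Of the 127 recomputed log2 fold changes of the 8, 27 turned, in the other 6 transcripts, and none passed the threshold. For Dppa3 this gave 0.0007 with RLE scaling factors, 0.0011 with DESeq2, 0.005 with father as random effect and 0.0361 with counts summed per father. For Padi6 it gave -0.0013 with file totals alone and -0.0025 when 10 counts were required in 5 or more embryos, a filter that dropped Khdc3. With father as random effect Ooep was -1.03 and Khdc3 0.0002. With the embryo number as a replicate block Padi6 was -0.0041, and 0 of 8 passed; the numbers do not pair the embryos (median correlation of same-numbered embryos across groups 0.0014, of others -0.0021), and the block changed no other direction.

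With 1 father left out in turn, the log2 fold changes ran from -0.21 (without father 6) to 0.52 for Nlrp5, -0.71 (without father 6) to 0.65 for Ooep, -0.49 to 0.49 (without father 2) for Khdc3, -0.13 (without father 7) to 0.10 for Padi6, -0.0912 (without father 7) to 0.50 for Npm2 and -0.16 to 0.13 (without father 3) for Dppa3. Per window without a match elsewhere, added after seeing the data, the order of the means was kept but Npm2 exceeded Dppa3 by only 1.09-fold. Other alternatives chosen after seeing the data left out embryos 2-3, 7-1 and 7-2 (Khdc3 0.20, Padi6 -0.0925, Npm2 -0.22) or embryo 6-1 (Nlrp5 -0.20), and ordered levels by coding length, where 5 of 8 ranks were kept. The causes were not tested. Counting alone would give a coefficient of variation of 37.3% for Khdc3, 13.2% for Zar1 and 12.7% for Ooep, and at most 6.79% for the others.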
